A study of Mus musculus with 11 samples.

Results

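The lysosome and autophagy module described here comprised 34 genes in a Kdm4 knockout time course of mouse leukaemia cells. Its members were taken from a fixed gene list through the RefSeq accession that the array gives each probe. The list held 8 cathepsins, 4 lysosomal membrane glycoproteins, 7 genes of glycosidases and lipid handling, 3 genes of a calcium channel and its transcription factors, 4 proton pump genes and 8 autophagy genes. Of these 34 genes, 33 matched a probe, with 43 probes in all, out of 25079 genes and unnamed features tested on the arrays. No probe was matched to Cd68, a macrophage-rich membrane glycoprotein, so it has no value here. The cells were L-GMP cells, leukaemic cells that resemble granulocyte-macrophage progenitors and carry the MLL-AF9 oncogene, in 4 lines derived from leukaemic mice on a C57BL/6 background. All arrays, those at 0 h included, came from cells with floxed Jmjd2a, Jmjd2b and Jmjd2c alleles (now Kdm4a, Kdm4b and Kdm4c, which encode histone H3 demethylases) and CreERT2 recombinase expressed from Rosa26, grown with 20% serum and 10 ng/ml IL-3. There were 4 arrays at 0 h (no 4-hydroxytamoxifen), 4 arrays at 48 h and 3 arrays at 96 h of 500 nM 4-hydroxytamoxifen, which activates the recombinase. Floxed-free cells given the drug were not analysed here, so loss of the 3 genes, the drug, the recombinase and time in culture cannot be told apart. The labels do not say which array came from which line or culture, so p-values measure only the spread between these arrays.

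Lysosomes break down proteins, sugars and lipids with acid hydrolases, which include the cathepsins and the glycosidases. They are kept acidic by the V-type ATPase, a proton pump with a membrane domain and a cytosolic domain that hydrolyses ATP. Autophagy wraps cytoplasm in a double membrane and delivers it to the lysosome for breakdown. The transcription factors TFEB and TFE3 bind the sequence CACGTG in many lysosomal promoters, and myeloid cells use lysosomal proteases to mature the enzymes of their granules.

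The module was expressed throughout. All 33 genes passed the filter on dim probes, and 42 of their 43 probes were well above background on all 11 arrays. Lamp1, the most abundant type of lysosomal membrane glycoprotein, had scaled log2 signals (log2 signal minus the array's 75th percentile) of 7.42 to 7.57 at 0 h, 7.46 to 7.73 at 48 h and 7.41 to 7.52 at 96 h. Ctsd, the aspartic protease cathepsin D, had 6.24 to 6.63 at 0 h, 6.71 to 7.01 at 48 h and 6.39 to 6.82 at 96 h. Both marker genes were thus strongly expressed at all 3 times. Between 29770 and 44975 non-control spots per array were well above background, and the 3 or 4 arrays per group limit the precision. The 75th percentile signal used for scaling was 149 to 204 at 0 h, 108 to 147 at 48 h and 229 to 294 at 96 h. Array brightness thus went with the time group. All 3 floxed genes were called lower at 48 h and at 96 h, with log2 differences from 0 h of -1.59 and -1.20 for Kdm4a, -3.30 and -3.24 for Kdm4b, and -4.95 and -4.60 for Kdm4c. All 12 listed markers of granulocyte-macrophage progenitors were above background on every array. Per the file headers, the 0 h and 48 h arrays lay on slide 1 and the 96 h arrays on slide 2, so a difference between 96 h and an earlier time and a difference between slides cannot be told apart.

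The promoters of the module were rich in CACGTG, and which factors bind it in these cells was not tested. In RefSeq promoters (GRCm38.p6, 250 bases before to 50 bases after a start), CACGTG, which reads the same on both strands, occurred for 11 of the 29 members with an entry (37.9%), against 8.09% of all 27025 genes. These 11 were Atg5, Atg7, Atp6v0d1, Atp6v1a, Ctsa, Ctsd, Ctsl, Gaa, Glb1, Lamp1 and Mcoln1. The longer TCACGTGA, also the same on both strands and holding CACGTG within it, occurred for 5 of the 29 members (17.2%; Atp6v0d1, Atp6v1a, Ctsa, Ctsd and Mcoln1), against 1.12% of all genes. The 250 bases before the start are given for 5 members, 5′ to 3′ on the gene's strand with CACGTG in capitals: the module's markers Lamp1 and Ctsd, which hold it, and Sqstm1, Gusb and Ctss, which had the largest differences from 0 h among members with an entry and hold none in these 250 bases.
Lamp1: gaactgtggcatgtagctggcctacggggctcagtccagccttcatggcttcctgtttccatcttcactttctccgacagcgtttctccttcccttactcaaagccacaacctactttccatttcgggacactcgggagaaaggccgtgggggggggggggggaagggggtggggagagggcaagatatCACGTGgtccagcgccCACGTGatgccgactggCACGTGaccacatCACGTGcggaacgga
Ctsd: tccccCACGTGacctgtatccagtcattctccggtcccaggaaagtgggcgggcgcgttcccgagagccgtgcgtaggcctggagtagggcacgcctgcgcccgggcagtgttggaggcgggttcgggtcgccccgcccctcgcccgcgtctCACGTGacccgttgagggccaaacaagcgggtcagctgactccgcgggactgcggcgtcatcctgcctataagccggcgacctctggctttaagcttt
Sqstm1: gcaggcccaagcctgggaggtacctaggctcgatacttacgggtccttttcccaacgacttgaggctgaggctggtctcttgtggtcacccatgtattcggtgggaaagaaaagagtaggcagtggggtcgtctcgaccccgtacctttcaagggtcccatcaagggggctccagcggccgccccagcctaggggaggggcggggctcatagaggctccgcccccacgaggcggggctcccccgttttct
Gusb: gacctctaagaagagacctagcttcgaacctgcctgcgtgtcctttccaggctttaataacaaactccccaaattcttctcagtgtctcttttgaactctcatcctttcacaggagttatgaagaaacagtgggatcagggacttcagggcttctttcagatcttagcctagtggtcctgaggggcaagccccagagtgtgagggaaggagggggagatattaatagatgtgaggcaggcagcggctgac
Ctss: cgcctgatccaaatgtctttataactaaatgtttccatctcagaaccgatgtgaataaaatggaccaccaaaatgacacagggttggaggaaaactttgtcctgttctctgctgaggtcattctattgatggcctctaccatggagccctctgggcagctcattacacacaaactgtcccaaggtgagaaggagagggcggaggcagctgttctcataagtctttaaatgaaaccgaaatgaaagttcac
The first runs along chr8:13158911-13159160 on the plus strand and holds CACGTG 4 times, beginning 61, 45, 28 and 15 bases before the start. The Ctsd stretch, chr7:142387828-142388077 on the minus strand, holds it 2 times, 245 and 98 bases before the start. The others are chr11:50210821-50211070 (minus) for Sqstm1, chr5:130003050-130003299 (minus) for Gusb and chr3:95526536-95526785 (plus) for Ctss. None of the 11 genes with CACGTG was called in any of the 3 comparisons of times, and their median log2 difference was 0.02 at 48 h and 0.01 at 96 h against 0 h. The 17 measured members with an entry and no CACGTG had medians of -0.09 and 0.10, with 1 call in each comparison. Among all genes, the share called relative to 0 h was 18.6% for 48 h and 9.56% for 96 h. Between 48 h and 96 h it was 11.1%. With 11 and 17 genes, these counts do not set members with and without CACGTG apart.

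In each of the 3 comparisons of times, 1 member of the module was called. At 48 h against 0 h, 1 of 33 members passed an adjusted p under 0.05 (limma, Benjamini-Hochberg over all genes), against 18.6% of all genes: Sqstm1, which fell, as did 8.03% of all genes, while 10.5% rose. At 96 h against 0 h, 1 of 33 was called, against 9.56% of all genes: Gusb, which rose, as did 6.18% of all genes, while 3.38% fell. At 96 h against 48 h, 1 of 33 was called, against 11.1% of all genes: Hexa, which was higher, as were 5.17% of all genes, while 5.95% were lower. With the arrays blocked by the number in their file names, 2 of 33 members were called at 48 h against 0 h (Ctsh higher and Sqstm1 lower, against 21.4% of all genes, 12.2% higher and 9.23% lower). That block called 3 of 33 at 96 h against 0 h (Gusb and Psap higher and Sqstm1 lower, against 14.0% of all genes, 8.56% higher and 5.45% lower) and 2 of 33 at 96 h against 48 h (Hexa and Psap higher, against 12.2% of all genes, 5.89% higher and 6.28% lower). The 95% interval of the log2 difference lay within 2-fold in either direction for 30 of 33 members at 48 h and for 30 at 96 h. The exceptions were Ctsh, Ctss and Sqstm1 at both times. It lay within 2-fold for 32 of 33 members between 48 h and 96 h, Ctss being the exception. Differences under 2-fold, such as those called for Gusb and Hexa, fit within such intervals, which hold for the main scaling only. At an unadjusted p under 0.05, 7 of 33 members passed between 48 h and 0 h, beside 34.7% of all genes. The count was 9 between 96 h and 0 h (28.5% of all genes) and 7 between 96 h and 48 h (28.1%). The scaling set the median of all genes 0.12 above 0 h at 48 h and 0.11 above 0 h at 96 h (-0.10 and -0.28 with the array median as the scale), and the median member lay 0.21 below that shift at 48 h and 0.06 below it at 96 h. With median scaling the calls at 96 h against 0 h were 0 higher and 4 lower (Ctsl, Map1lc3b, Npc1 and Sqstm1) in place of 1 higher and 0 lower.

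Leaving out 0 h replicate 2, the array with the lowest Sqstm1 signal at 0 h, gave the most calls. Without it, 4 members were called at 48 h against 0 h (Gusb higher, and Sqstm1, Atg5 and Npc1 lower), 3 at 96 h against 0 h (Gusb higher, and Sqstm1 and Atg5 lower) and 2 at 96 h against 48 h (Hexa and Ulk1, both higher). Without 0 h replicate 1, Ctsh joined Sqstm1 at 48 h. Without 48 h replicate 2, Psap joined Hexa at 96 h against 48 h, and without 48 h replicate 4, 96 h replicate 1 or 96 h replicate 3 no member was called there.

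**Figure D1:**
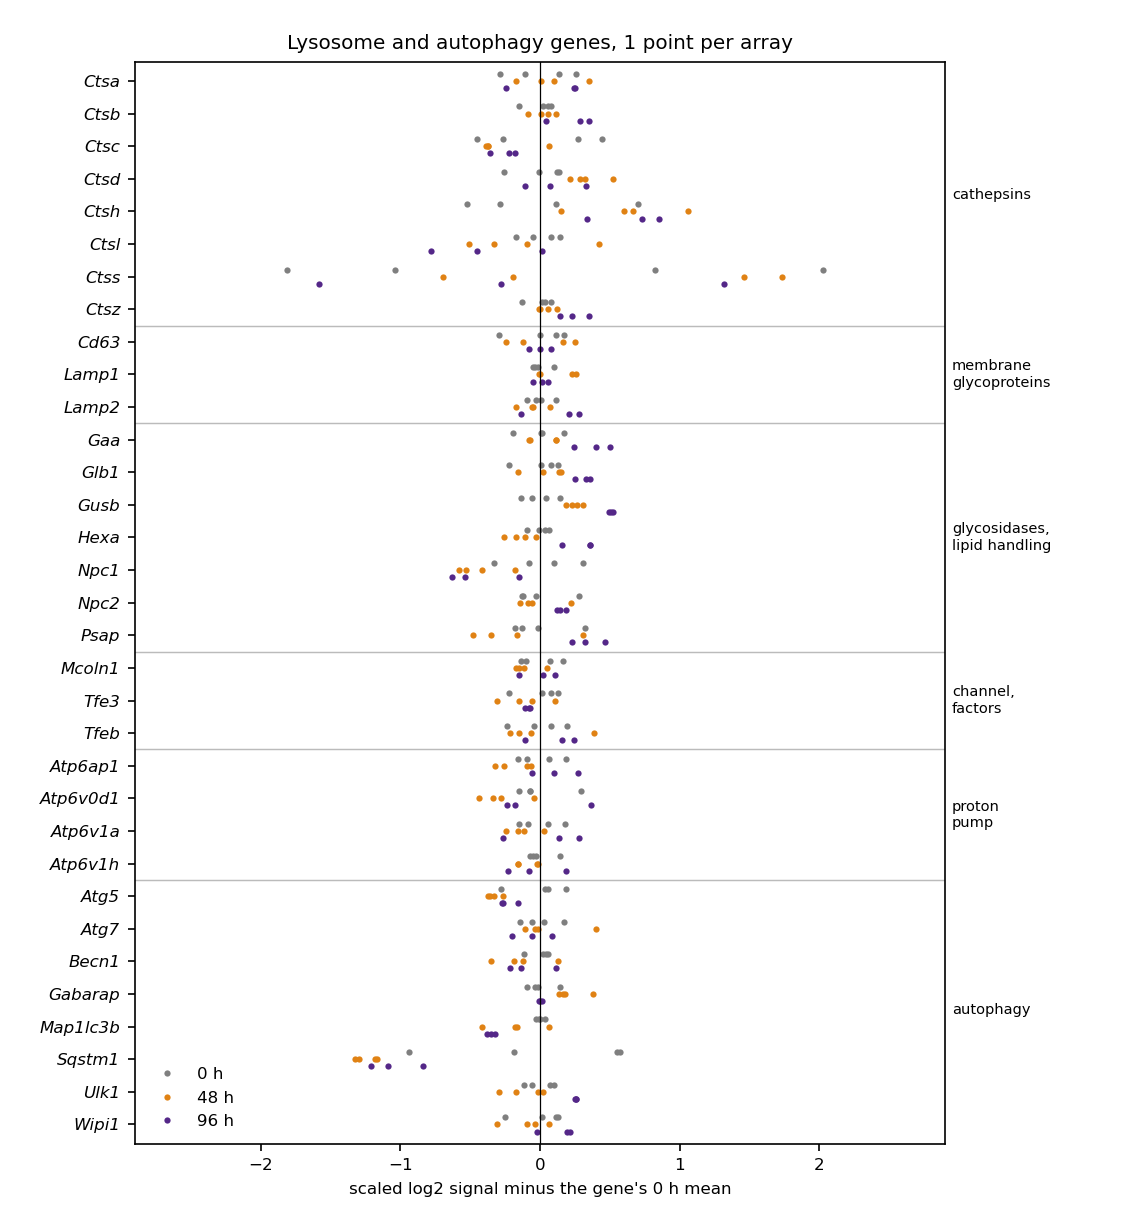
Scaled log2 signal of each of the 33 measured genes minus its own 0 h mean, 1 point per array (grey 0 h, orange 48 h, purple 96 h; 4, 4 and 3 arrays), grouped by role. Most points lie close to 0; the Sqstm1 points at 48 h lie below all 4 points at 0 h, the 3 Gusb points at 96 h lie above all others of that gene, and Ctss is spread widely at every time.

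**Figure D2:**
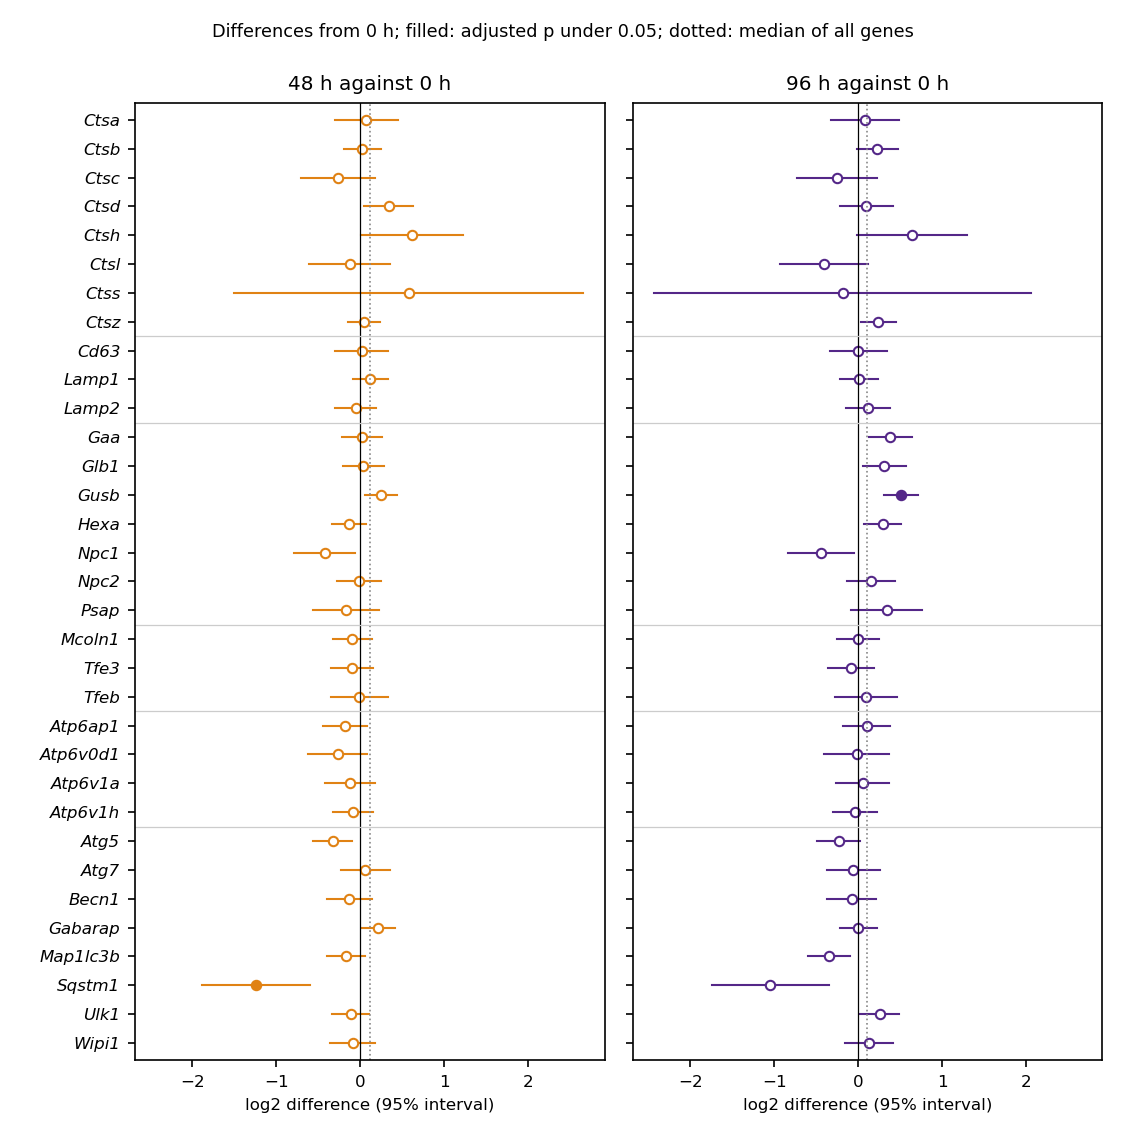
Log2 difference from 0 h with its 95% interval for each gene at 48 h (left, n = 4 against 4) and 96 h (right, n = 3 against 4); filled points passed an adjusted p under 0.05 and the dotted line is the median of all genes. Sqstm1 at 48 h (-1.24) and Gusb at 96 h (0.51) are the filled points, and Ctss has the widest interval.

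Sqstm1, which encodes the autophagy receptor p62 that carries ubiquitin-tagged cargo into autophagosomes, gave the largest difference of the module. Its probe (A_55_P2069714) had scaled log2 signals of 2.73, 2.86, 2.70 and 2.85 at 48 h, against 4.60, 3.09, 3.84 and 4.58 at 0 h. Every 48 h array lay below every 0 h array, and the 4 arrays at 48 h were close together while 0 h replicate 2 lay far below the other 0 h arrays. The mean fell to 2.79 ± 0.08 (SD, n = 4) at 48 h, against 4.03 ± 0.72 (n = 4) at 0 h, which left 42.2% of the 0 h signal (log2 difference -1.24, SE 0.29, limma adjusted p = 0.0182). Sqstm1 stayed called without any single array (log2 difference -1.56 to -1.05, highest adjusted p = 0.048) and under all 12 other settings tried. With the block by file-name number, Sqstm1 at 48 h kept its call in 5 of 11 cases with 1 array left out (adjusted p up to 0.0751). At 96 h it had 3.19, 2.82 and 2.94, and 1 of these values overlapped 0 h replicate 2. The difference from 0 h at 96 h was -1.05 (SE 0.32, 95% interval -1.75 to -0.35), with an adjusted p of 0.0625. With a block for the array number in the file names, which pairs arrays across times, it was -1.19 with an adjusted p of 0.0396, and the range of adjusted p over the 12 other settings was 0.0168 to 0.14. The blocked call at 96 h was kept without 0 h replicate 2, 48 h replicate 1 or 48 h replicate 2 and lost without any other array (up to 0.134), and without the block it was gained on leaving out 0 h replicate 2 (-1.36, adjusted p = 0.0071). In matched numbers Sqstm1 was lower than at 0 h in 4 of 4 pairs at 48 h and 3 of 3 at 96 h. In RNA from whole cultures, fewer cells of a type and less RNA per cell cannot be told apart.

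The other 7 autophagy members were not called against 0 h. Map1lc3b, the LC3B protein coupled to autophagosome membranes, had 3.59, 3.56 and 3.53 at 96 h and 3.91, 3.91, 3.94 and 3.88 at 0 h. The groups did not overlap, yet the difference of -0.35 (95% interval -0.59 to -0.10) had an adjusted p of 0.0725. Atg5, part of the enzyme complex that attaches LC3 to membranes, differed by -0.33 (-0.57 to -0.09, adjusted p = 0.0553) at 48 h and -0.23 at 96 h. Ulk1, the kinase that starts autophagy, had 3.34, 3.33 and 3.34 at 96 h, above all arrays at 48 h (2.79 to 3.11) and 0 h (2.97 to 3.18). Its differences were 0.25 against 0 h (adjusted p = 0.147) and 0.37 against 48 h (adjusted p = 0.0504). Over the 12 other settings Ulk1 at 96 h against 0 h ran from -0.13 (median scaling) to 0.32 (adjusted p 0.0248 to 0.679) and was called higher under 2, normexp and the deposited table. Against 48 h it was called higher under 4 of them (adjusted p 0.0181 to 0.586). Gabarap, an LC3 relative, differed by 0.21 at 48 h (0.01 to 0.41, adjusted p = 0.122) and by 0.00 at 96 h (-0.21 to 0.22). Becn1, a subunit of the lipid kinase complex of autophagy, Atg7, the activating enzyme of the LC3 conjugation, and Wipi1, which binds the lipid that this kinase makes, had differences between -0.13 and 0.13 from 0 h at both times.

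Gusb, the beta-glucuronidase that cuts glucuronic acid from sugar chains, was the member called higher at 96 h. Its probe (A_51_P211491) had 5.61, 5.60 and 5.62 at 96 h, against 4.97, 5.24, 5.15 and 5.05 at 0 h. The 3 arrays at 96 h nearly coincided and lay above all 0 h arrays. The mean was 5.61 ± 0.01 (SD, n = 3) at 96 h and 5.10 ± 0.12 (n = 4) at 0 h, a 1.42-fold difference (log2 0.51, SE 0.09, limma adjusted p = 0.0144), or 0.40 above the median of all genes. The 48 h arrays, with 5.37, 5.29, 5.41 and 5.33, also lay above all 0 h arrays, but the difference of 0.25 (0.06 to 0.44) had an adjusted p of 0.0689. The 96 h call held without any single array (highest adjusted p = 0.0457). It was lost with median scaling (log2 difference 0.12, adjusted p = 0.692) and when only the 0 h and 96 h arrays were fitted (adjusted p = 0.0592), within a range of 0.00127 to 0.692 over the 12 other settings.

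Hexa and Psap were highest at 96 h as well. Hexa, the alpha chain of hexosaminidase A, which degrades gangliosides, had 5.22, 5.20, 5.07 and 5.16 at 0 h, 5.06, 5.14, 4.99 and 4.91 at 48 h, and 5.52, 5.32 and 5.52 at 96 h. The 96 h arrays lay above all arrays of both earlier times, which overlapped each other. Hexa was 1.35-fold higher at 96 h than at 48 h (log2 difference 0.43, SE 0.10, adjusted p = 0.0223), and differed from 0 h by 0.29 (0.07 to 0.51, adjusted p = 0.0834) at 96 h and by -0.14 (-0.34 to 0.06) at 48 h. The call against 48 h was lost without 48 h replicate 4 (adjusted p = 0.0609), 96 h replicate 1 (0.0866) or 96 h replicate 3 (0.0727), and over the 12 other settings the adjusted p ranged from 0.00862 to 0.414. Psap, the precursor of the saposins that present lipids to hydrolases, had 2.87, 3.21, 2.76 and 2.70 at 0 h, 2.72, 3.20, 2.41 and 2.53 at 48 h, and 3.35, 3.11 and 3.21 at 96 h. Replicate 2 at 0 h and at 48 h, which has no array of its number at 96 h, reached the 96 h values. Psap was not called without the block (0.51, adjusted p = 0.112 against 48 h, and 0.34, adjusted p = 0.269 against 0 h). With the block by file-name number it was called, at 0.64 (adjusted p = 0.0132, range over the 12 other settings 0.0132 to 0.386) and 0.47 (adjusted p = 0.0254, range 0.0254 to 0.903), and the call against 48 h was lost without 48 h replicate 1 or 4 or 96 h replicate 1 or 3 (adjusted p up to 0.0674). The blocked call against 0 h was lost without 0 h replicate 1, 3 or 4 or any 96 h array (up to 0.0889).

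Among the other genes of this group, Gaa, the acid alpha-glucosidase that degrades glycogen, had 6.24, 6.33 and 6.07 at 96 h, above the 0 h arrays (5.64 to 6.00) and the 48 h arrays (5.75 to 5.95). The difference from 0 h was 0.38 (0.12 to 0.64, adjusted p = 0.0645), and a dimmer second probe gave 0.08. Glb1, the acid beta-galactosidase, had 3.18, 3.26 and 3.28 at 96 h, above all 0 h and 48 h arrays, and its difference from 0 h was 0.31 (0.05 to 0.57, adjusted p = 0.114). Npc2, a soluble cholesterol carrier, differed from 0 h by -0.02 at 48 h and 0.15 at 96 h. Npc1, the membrane transporter that receives cholesterol from it, lay on the other side, at -0.43 (-0.79 to -0.06, adjusted p = 0.0957) at 48 h and -0.44 (-0.83 to -0.05, adjusted p = 0.135) at 96 h. With median scaling, under which the median of all genes was -0.28, the differences from 0 h at 96 h were -0.00 for Gaa, -0.07 for Glb1, -0.09 for Hexa and -0.05 for Psap. The median of the 7 genes was -0.02 at 48 h and 0.31 at 96 h against 0 h, which is 0.14 below and 0.20 above the median of all genes. Neutrophil granule genes moved in the same interval. The summed level of the 11 of 12 listed mature neutrophil markers with a probe ran from 163.9 to 712.3 at 0 h, 296.9 to 735.1 at 48 h and 914.7 to 1594.0 at 96 h (linear signal over the 75th percentile of each array), and each of the 11 was above background on some array. They were called higher for 2 of 11 at 48 h (Camp 2.50 and Csf3r 0.66 on the log2 scale) and 4 of 11 at 96 h, beside 10.5% and 6.18% of all genes called higher. These 4 were Ltf (lactoferrin), Camp (cathelicidin), Retnlg and S100a8, with log2 differences from 0 h of 6.82, 5.70, 4.45 and 3.11. Their part in the results for Gusb, Hexa and Psap was not tested.

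The summed level of the 16 of 17 monocyte and macrophage markers with a probe was 51.9 to 96.1 at 0 h, 77.5 to 103.3 at 48 h and 70.1 to 117.4 at 96 h (linear scale), and 9, 8 and 9 of the 16 were above background on all arrays of the group, with Mrc1 above it on none. Of these, Apoe was called higher at both times (0.49 and 0.64 on the log2 scale) and Itgam at 48 h (0.74), and Fcgr1 was called lower at 48 h (-3.71). Fcgr1 was above background on only 1 of the 4 arrays at 48 h, so the size of its difference there is uncertain. Of all genes, 10.5% were called higher and 8.03% lower at 48 h, and 6.18% higher and 3.38% lower at 96 h. Progenitor markers summed to 1151 to 1500 at 0 h, 1880 to 2021 at 48 h and 1685 to 1713 at 96 h, and 10 of 10 dendritic cell markers to 144 to 168, 228 to 246 and 150 to 191. Markers of mast cells and basophils (8.48 to 22.8 over the 11 arrays), lymphoid cells (21.9 to 36.9) and fibroblasts (3.05 to 17.5) each held genes above background on all arrays of every group, 5 of 8, 5 of 9 and 3 or 4 of 6, and genes above it on no array, Ms4a2, Ms4a1 and Pdgfra. Mpo and Ms4a3 of the progenitor markers were called at both times against 0 h, and Plac8 at 48 h. Siglech of the dendritic cell markers was called at 48 h and Batf3 at 96 h. Mcpt8 and Tpsb2 of the mast cell and basophil markers were called at 48 h and Gata2 at 96 h. Cd3e of the lymphoid markers was called at 96 h. These calls are given without direction, beside 18.6% of all genes called in either direction at 48 h and 9.56% at 96 h.

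**Figure D3:**
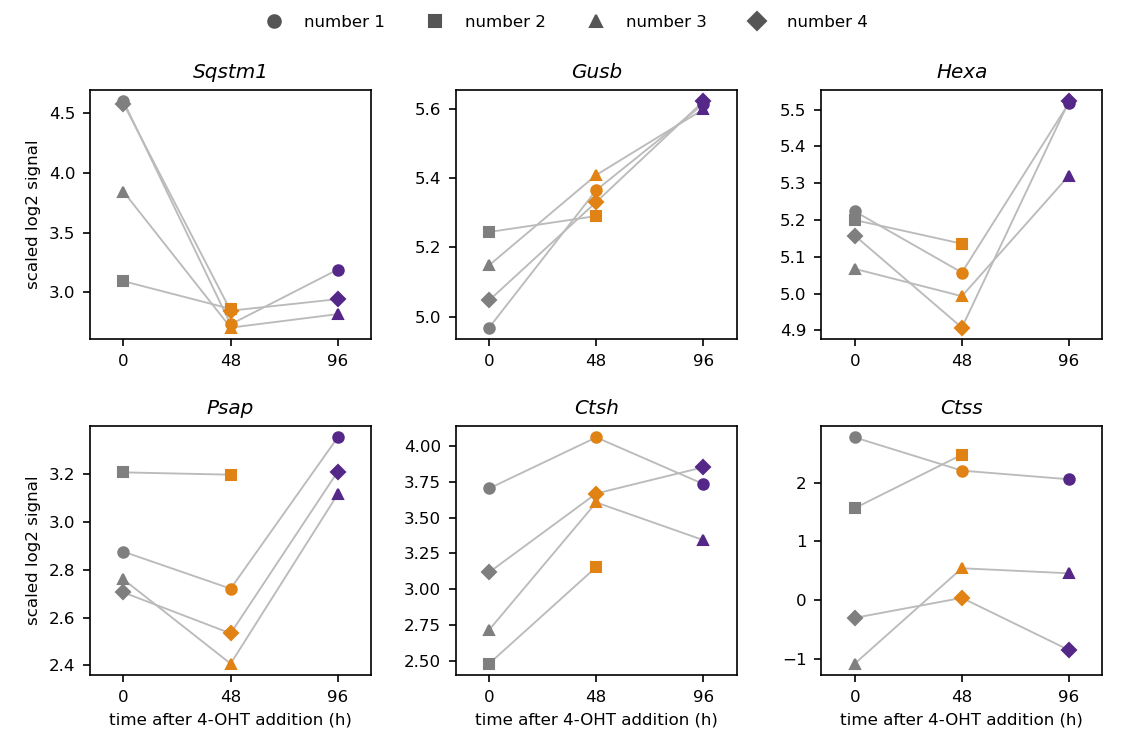
Scaled log2 signal of 6 genes by time after 4-hydroxytamoxifen was added, 1 symbol per array; grey lines join arrays with the same number in their file names, and number 2 has no array at 96 h. Sqstm1 dropped to 2.70 to 2.86 at 48 h, and Gusb converged on 5.60 to 5.62 at 96 h. The Psap, Ctsh and Ctss lines keep their order across times only in part, with neighbouring lines changing places in each gene.

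None of the 8 cathepsins was called against 0 h. Ctsh, an aminopeptidase among the cysteine cathepsins, came nearest, with 4.06, 3.15, 3.61 and 3.67 at 48 h, against 3.70, 2.48, 2.72 and 3.12 at 0 h. The groups overlapped, but within each number the 48 h array was higher in 4 of 4 pairs. The difference was 0.62 (95% interval 0.01 to 1.23, adjusted p = 0.137), and with the block by number, its adjusted p was 0.0248. That call was lost without 0 h replicate 2, 3 or 4 or any 48 h array (adjusted p up to 0.0761), and the adjusted p over the 12 other settings ranged from 0.0248 to 0.388. Ctsh differed from 0 h by 0.64 at 96 h (-0.02 to 1.30, adjusted p = 0.185). Ctsd had 6.78, 7.01, 6.71 and 6.82 at 48 h, above the 4 arrays at 0 h (6.63, 6.62, 6.24 and 6.49), with a difference of 0.34 (0.05 to 0.62, adjusted p = 0.0979) that was 0.10 (-0.21 to 0.41) at 96 h. A second Ctsd probe gave 0.16 and -0.17.

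Ctss, cathepsin S, the cysteine protease of antigen-presenting cells, varied most between arrays. It had 2.77, 1.57, -1.07 and -0.30 at 0 h, 2.20, 2.47, 0.55 and 0.04 at 48 h, and 2.06, 0.46 and -0.84 at 96 h, the last 3 being numbers 1, 3 and 4 of the file names. At 0 h and 48 h, numbers 1 and 2 were high and numbers 3 and 4 low, and number 1 was also the highest at 96 h. The spread within groups was 1.49 (SD on the log2 scale), larger than that of 99.3% of genes, and 0.64 with the block, with intervals of the difference from 0 h of -1.51 to 2.66 at 48 h and -2.43 to 2.06 at 96 h without the block. With the block the differences were 0.58 (-0.34 to 1.49, limma adjusted p = 0.304) and 0.15 (-0.87 to 1.17, adjusted p = 0.839). The other members were steadier, and the median within-group SD was 0.15 for the 33 members and 0.24 for all genes. The remaining cathepsins Ctsa (which also protects other hydrolases), Ctsb and Ctsl (cysteine proteases), Ctsc (which activates granule serine proteases) and Ctsz (a carboxypeptidase) differed from 0 h by -0.27 to 0.07 at 48 h and -0.41 to 0.24 at 96 h. A second Ctsa probe lay outside these ranges, at -0.31 at 48 h and 0.30 at 96 h, where the first gave 0.07 and 0.08. Ctsz lay above all 0 h arrays at 96 h, with 6.48, 6.35 and 6.27 against 6.20, 6.16, 5.99 and 6.14 (0.24, adjusted p = 0.128).

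None of the 4 proton pump members was called against 0 h. Atp6v0d1 of the membrane domain, Atp6v1a, the catalytic subunit, Atp6v1h, a regulatory subunit of the cytosolic domain, and Atp6ap1, an accessory protein, differed from 0 h by -0.27, -0.12, -0.09 and -0.18 at 48 h, and by -0.02, 0.05, -0.04 and 0.10 at 96 h. Their adjusted p ran from 0.252 to 0.59 at 48 h and from 0.618 to 0.958 at 96 h. All 8 intervals lay between -0.63 and 0.38. Atp6v0d1 had 4.09, 4.48, 4.19 and 4.25 at 48 h, against 4.45, 4.82, 4.45 and 4.38 at 0 h, and was lower in 4 of 4 matched pairs. Atp6ap1 was the pump gene whose 96 h arrays (2.87 to 3.20) lay above those at 48 h (2.60 to 2.87, equal at the edge only after rounding), with a difference of 0.29 (0.01 to 0.57, adjusted p = 0.166).

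No membrane glycoprotein or regulator was called against 0 h. Lamp1 and Lamp2, the main coat proteins of the lysosomal membrane, and Cd63, a tetraspanin of late endosomes, differed from 0 h by 0.12, -0.05 and 0.01 at 48 h and by 0.01, 0.12 and 0.00 at 96 h, with all 6 intervals between -0.34 and 0.38. Mcoln1, the lysosomal calcium channel, Tfe3 and Tfeb differed by -0.10, -0.10 and -0.01 at 48 h and by -0.01, -0.09 and 0.10 at 96 h, with all 6 intervals between -0.36 and 0.47. The Tfeb probe had the lowest signals of the 3 regulators' probes, -1.08 to -1.70 over the 11 arrays, but stayed well above background on each of them.

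Set side by side, the cathepsins, the proton pump and the autophagy genes had median log2 differences from 0 h of 0.06, -0.15 and -0.12 at 48 h and 0.09, 0.02 and -0.07 at 96 h. Relative to the median of all genes these were -0.06, -0.27 and -0.24 at 48 h and -0.02, -0.09 and -0.18 at 96 h. Calls against 0 h numbered 0 of 8 cathepsins, 0 of 4 pump genes and 1 of 8 autophagy genes at 48 h, and 0 of 8, 0 of 4 and 0 of 8 at 96 h. Of all genes, 18.6% were called at 48 h and 9.56% at 96 h. With 4 or 8 genes each, these counts do not set the groups apart. The counts with an unadjusted p under 0.05 were 2, 0 and 3 at 48 h, where 34.7% of all genes passed, and 1, 0 and 3 at 96 h, where 28.5% did. Over the 5 scalings tried, the pump median lay 0.15 to 0.27 below that of all genes at 48 h, the autophagy median 0.03 to 0.24 below and the cathepsin median 0.06 to 0.07 below. At 96 h the pump median ran from 0.09 below to 0.01 above, so its side changed with the scaling, as did that of the cathepsins (0.02 below to 0.10 above), while the autophagy median stayed 0.03 to 0.18 below and that of glycosidases and lipid handling 0.20 to 0.35 above. Groups of arrays did not overlap for 3 of 33 members at 48 h against 0 h (9.09%, against 23.9% of all genes), 2 higher and 1 lower (14.1% and 9.83% of all genes). They did not overlap for 7 members at 96 h against 0 h (21.2%, against 25.1%), 6 higher and 1 lower (16.4% and 8.69% of all genes), and for 8 at 96 h against 48 h (24.2%, against 27.9%).

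Hexa was the 1 member called at 96 h against 48 h, and no pump gene was. The median difference of 96 h against 48 h was 0.21 for the 4 pump genes, 0.27 for the 7 genes of glycosidases and lipid handling, 0.08 for autophagy and 0.01 for cathepsins, beside 0.03 for all genes. Within these groups Atp6v1h differed by 0.05 and Npc1 by -0.01, and the median of the 16 other pump subunits tested was -0.04. Of the 8 members with separate groups, 7 were higher at 96 h (Hexa, Gusb, Gaa, Glb1, Ulk1, Atp6ap1 and Ctsz) and 1, Gabarap, was lower (5.96, 5.97 and 5.95 at 96 h against 6.13, 6.33, 6.09 and 6.12 at 48 h). Of all genes, 14.2% were separate and higher and 13.6% separate and lower. Gabarap's difference was -0.21 (-0.43 to 0.00, adjusted p = 0.186), and its second probe gave 0.16. For the 10 members with a second probe, the sign matched in 6, 4 and 7 of 10 genes in the 3 comparisons, and neither probe of any was called.

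A wider set of pathway genes was read beside the members. Of 157 further lysosome and autophagy genes that could be tested, drawn from 6 other lists, 17 were called higher and 13 lower at 48 h against 0 h (19.1%, beside 18.6% of all genes), and 14 higher and 4 lower at 96 h against 0 h (11.5%, beside 9.56%). The share of these genes was therefore near that of all genes at both times. No test compared these genes with the members. Of the higher calls against 0 h given next, those of Bnip3 and Slc17a5 at 48 h and Arsb at 96 h were kept with median scaling and the others were lost.

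**Figure D4:**
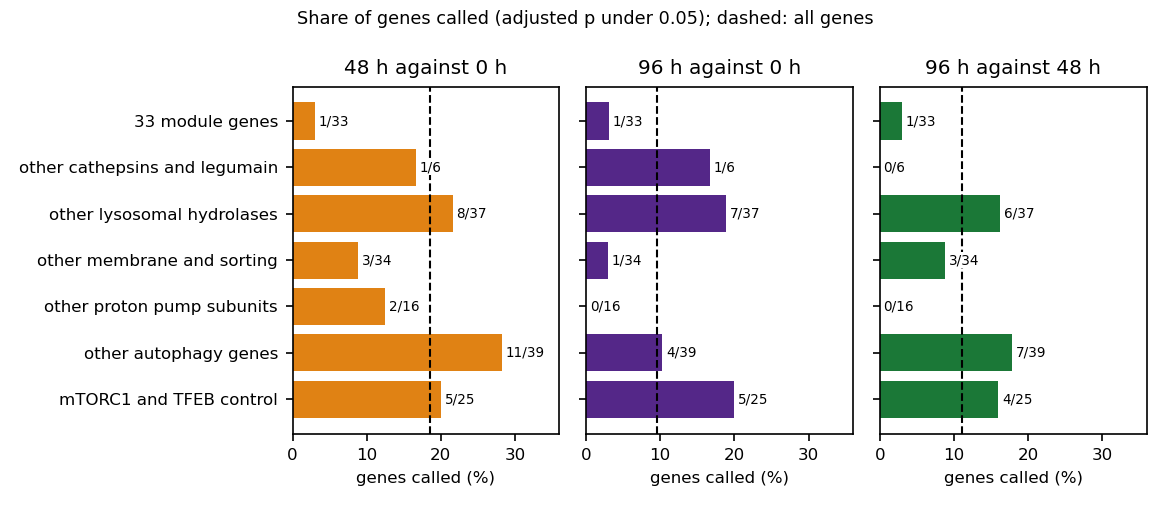
Share of genes called (adjusted p under 0.05) among the 33 members and in 6 lists of other lysosome and autophagy genes, for 3 comparisons; numbers give calls over genes tested and the dashed line is the share of all genes (18.6%, 9.56% and 11.1%). The members stand at 1 of 33 in each comparison, left of the dashed line.

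Other lysosomal hydrolases were called in both directions, 6 higher and 2 lower of 37 at 48 h and 6 higher and 1 lower of 37 at 96 h. The shares of all genes were 10.5% higher and 8.03% lower at 48 h, and 6.18% and 3.38% at 96 h. Scpep1, a serine carboxypeptidase, fell at both times, by 0.97 on the log2 scale at 48 h (adjusted p = 0.00178) and by 0.78 at 96 h (adjusted p = 0.00784), and kept its call under all 12 other settings and without any single array. Acp5, tartrate-resistant acid phosphatase, rose by 1.0 on the log2 scale at 48 h (adjusted p = 0.00467) and by 0.82 at 96 h (adjusted p = 0.0227), a call that was lost without 0 h replicate 4, 96 h replicate 2 or 96 h replicate 3 (adjusted p up to 0.0743). Idua, which cuts iduronic acid from heparan and dermatan sulphate, rose by 1.0 at 48 h (adjusted p = 0.00266) and differed from 0 h by -0.03 at 96 h, but the mean of its probes at 48 h was 0.20 and not called. Arsb, arylsulfatase B, rose by 0.85 at 48 h and 1.36 at 96 h (adjusted p = 0.0183 and 0.0103). Its signal was low (-3.10 at 0 h) and the size depended on the processing, falling to 0.20 and 0.43 at the lowest of the other settings. The 48 h call was lost under normexp, median scaling, quantile normalization and the deposited table (adjusted p up to 0.134), and the 96 h call was kept under all 12. Without 48 h replicate 4 the 48 h adjusted p was 0.0548. Fuca1, the lysosomal fucosidase, rose by 0.55 at 96 h (adjusted p = 0.0284), a call lost without any of 6 arrays, 0 h replicates 1, 3 and 4 and all 3 at 96 h (adjusted p up to 0.0848). Ctsf, a cysteine cathepsin, rose by 0.56 at 48 h and 0.77 at 96 h (adjusted p = 0.00677 and 0.00645), and was the 1 gene called of 6 other cathepsins and legumain at each time. Its 48 h value also depended on the processing, at 0.20 at the lowest of the other settings, with the call lost under normexp, the deposited table and median scaling (adjusted p up to 0.325).

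Other autophagy genes had 5 higher and 6 lower calls of 39 at 48 h (10.5% and 8.03% of all genes), and 4 higher and 0 lower at 96 h (6.18% and 3.38%). Bnip3, a mitophagy receptor, rose 2.53-fold at 48 h (log2 difference 1.34, adjusted p = 0.00122) and differed from 0 h by -0.01 at 96 h, so that it was lower at 96 h than at 48 h (-1.34, adjusted p = 0.00254). Atg9a, the lipid scramblase of autophagosome precursors, rose by 0.71 at 48 h (adjusted p = 0.0142). Atg10, which helps to attach ATG12 to ATG5, and Epg5, which tethers autophagosomes to lysosomes, fell by 0.70 and by 0.63 at 48 h (adjusted p = 0.00667 and 0.00928). At 96 h Map1lc3a, a relative of Map1lc3b, rose by 0.86 (adjusted p = 0.0038), where Map1lc3b itself differed by -0.35. Pik3r4, the scaffold of the autophagy lipid kinase, Ulk2, a second starting kinase, and Atg2a, a lipid transfer protein, rose by 0.64, 0.60 and 0.59 at 96 h (adjusted p = 0.0131, 0.0176 and 0.0276). The call of Ulk2 was lost without 96 h replicate 2 (adjusted p = 0.0627) and that of Atg2a without any of 0 h replicates 1, 3 and 4 or any 96 h array (up to 0.0768).

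Of other lysosomal membrane and sorting proteins, 2 were called higher and 1 lower of 34 at 48 h (10.5% and 8.03% of all genes) and 1 higher at 96 h (6.18%). Slc17a5, the sialic acid exporter, rose by 1.13 at 48 h (adjusted p = 0.00243), and Slc48a1, a haem transporter, rose by 0.40 (adjusted p = 0.0169), a call lost under normexp, the deposited table and median scaling (0.18 at the lowest). Slc38a9, the arginine sensor of mTORC1 on the lysosome, fell by 0.57 (adjusted p = 0.00558), though the mean of its probes was -0.18 and not called. These 3 genes differed from 0 h by 0.08, 0.26 and 0.02 at 96 h. Sort1, sortilin, a receptor that delivers hydrolases to lysosomes, rose by 0.81 at 96 h (adjusted p = 0.00622). Of 16 other proton pump subunits tested of 21 listed, 2 were called at 48 h, Atp6v1e1 (0.56, adjusted p = 0.0397) and Atp6v0e (0.38, adjusted p = 0.0246), both higher. Those calls were lost without any of 8 and any of 4 arrays (adjusted p up to 0.104 and 0.0697; Atp6v0e without 0 h replicate 1 or 4 or 48 h replicate 3 or 4, and Atp6v1e1 in all cases except 0 h replicate 2 and 96 h replicates 1 and 3). At 96 h limma called 0 of these 16, with 7 at an unadjusted p under 0.05, where 28.5% of all genes passed.

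In the control of TFEB by the kinase complex mTORC1, 1 gene of 25 was called higher and 4 lower at 48 h, and 2 higher and 3 lower at 96 h. Beside these stand 10.5% and 8.03% of all genes at 48 h, and 6.18% and 3.38% at 96 h. Rraga, the GTPase RagA that brings mTORC1 to the lysosome, fell by 0.37 at 48 h (adjusted p = 0.0237) and by 0.64 at 96 h (adjusted p = 0.0102). Its 96 h call held without any single array and under all 12 other settings, while the 48 h call was lost without 0 h replicate 1, 3 or 4 or 48 h replicate 4 (up to 0.0687). Nprl3, a subunit of the complex that switches RagA off, fell by 0.61 at 48 h (adjusted p = 0.00344) and differed by -0.24 at 96 h. Mtor itself differed by -0.21 at 48 h and rose by 0.45 at 96 h (adjusted p = 0.0391), a call that was kept without 3 of the 11 arrays (0 h replicate 2, 48 h replicates 3 and 4) and lost without any other (up to 0.114). Prkaa1, the AMPK catalytic subunit, fell by 0.46 at 48 h, Lamtor4 of the Ragulator scaffold rose by 0.43 at 48 h, Lamtor3 of the same scaffold fell by 0.52 at 96 h and Fnip2, a folliculin partner, rose by 0.47 at 96 h (adjusted p = 0.0379, 0.0433, 0.0343 and 0.0345). Each of these 4 calls was lost on leaving out any of 6 or 7 arrays, 0 h replicates 1, 3 and 4 always among them (adjusted p up to 0.115).

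**Figure D5:**
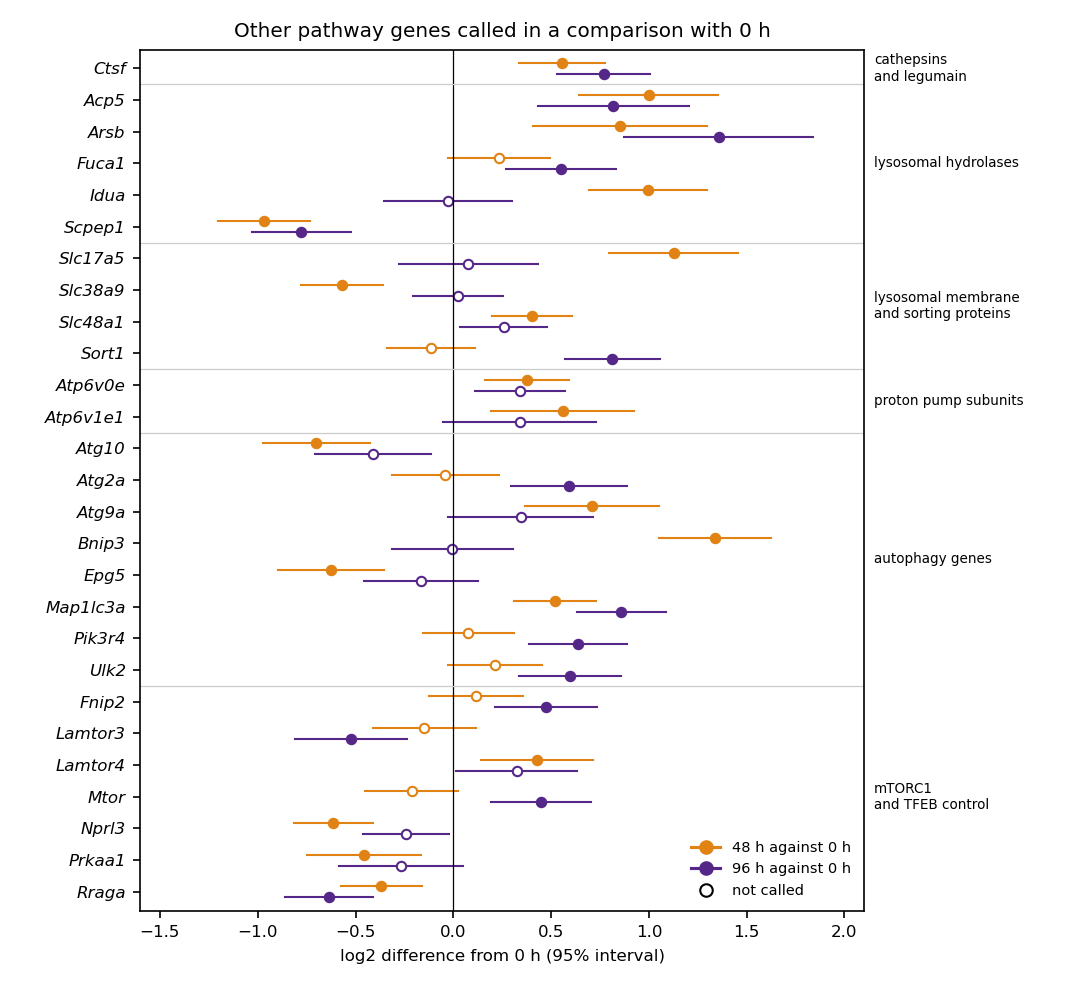
Log2 difference from 0 h with its 95% interval for the named genes of 6 other lists, orange at 48 h (n = 4 against 4) and purple at 96 h (n = 3 against 4); filled points were called. Bnip3, Idua and Slc17a5 stand at about 1.0 or above at 48 h and near 0 at 96 h, Scpep1 is low at both times and Arsb is highest at 96 h.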

How the data were processed

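RNA from 11 samples was hybridised to 1-colour Agilent mouse arrays. Per the file headers, Feature Extraction 11.0.1.1 made the deposited scanner intensities, a background-corrected processed signal beside mean and background signals for 62976 spots (59305 non-control, 0 saturated), against an mm9 design. The deposited series table holds log2 values whose scale the file does not state. It matched normexp (offset 50) with quantile normalization at a correlation of at least 0.99998, with array medians of 6.17 to 6.19. The submitters' processing notes name limma, with no version given.

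Control and outlier spots (125 to 194 per array) were left out, spots of a probe averaged, and each array's 75th percentile subtracted from the log2 processed signal. Probes well above background on at least 3 arrays were kept (34269 of 55681). RefSeq accessions named 27656 probes and left 28025 unnamed. A gene with several probes was represented by the one with the highest mean, giving 25079 features (14999 named genes). limma 3.58.1 in R 4.3.3 fitted 3 time groups over all 11 arrays (8 residual degrees of freedom), with Benjamini-Hochberg adjustment over all features and a threshold of 0.05. The code was tested on simulated data. Intervals are at 95%. A depth in reads does not apply, and the number of arrays limits the precision.

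The members and all gene lists were chosen with earlier results of these data known. The text names all members and, from each other reported list, up to 4 genes called at 48 h or 96 h against 0 h with the largest absolute log2 difference, with marker lists otherwise given as counts and ranges. The result of 1 marker list is not reported here.

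Replicate numbers in the titles and in the file names differ for the 96 h arrays (1, 2 and 3 in titles, 1, 3 and 4 in file names). Deviations of arrays with the same file-name number correlated at 0.14 to 0.28 between 48 h and 0 h, 0.12 to 0.36 between 96 h and 0 h and 0.23 to 0.30 between 96 h and 48 h. With title numbers the lowest was -0.04, so the file-name numbers were taken to pair the arrays. At 0 h and 48 h both numberings are the same, so that range does not decide between them. Some arrays with unlike numbers correlated as highly. For 48 h number 3 with 0 h number 4 the value was 0.17, against 0.14 for number 4 at both times. The 12 other settings were blocks by each number, normexp, median scaling, quantile normalization, the deposited series table, no filter, probes above background on all arrays, the mean of a gene's probes, slide row, only the groups compared, and array weights. Each array was also left out in turn.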

Additional observations from a re-analysis of the deposited data

Results flagged for a closer look

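Within groups of 4 arrays, 3 of 66 gene and time combinations had an array far from the others, where chance gives about 1 in 20. Ctsc, the cathepsin that activates granule proteases, had a scaled log2 signal of 2.12058 in 48 h replicate 3, and the next array had 1.67838. Atp6v0d1 of the proton pump had 4.81947 in 0 h replicate 2, and the next had 4.44909. Gabarap of the LC3 family had 6.33473 in 48 h replicate 2, and the next had 6.1313. Hexa was chosen because its differences from 0 h at 96 h and at 48 h differed by a test of that difference (96 h against 48 h, log2 difference 0.43, limma adjusted p = 0.0223), with 0.29 at 96 h and -0.14 at 48 h, both against the same 0 h arrays.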

How the results depend on the processing

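The counts of members called, 1 in each comparison, moved with the setting. At 48 h against 0 h the count was 2 with the replicate block by file-name number, with median scaling or with probes above background on all 11 arrays, and 3 with array weights. At 96 h against 0 h it was 3 with that replicate block, normexp, the deposited table or the filter on all 11 arrays, 4 with median scaling, 2 with array weights and 0 with only the 2 groups compared. At 96 h against 48 h it was 2 with that replicate block or the filter on all 11 arrays, 6 with normexp or the deposited table, 3 with quantile normalization or array weights, and 0 with the block by title number, median scaling, no filter or only the 2 groups. The cause was not tested. Without each array in turn the counts ran from 1 to 4 at 48 h and 1 to 3 at 96 h against 0 h, and 0 to 2 at 96 h against 48 h. Cd63 at 96 h against 48 h reversed, to 0.41 with normexp and 0.40 with the deposited table, from -0.01. With the block, leaving out arrays gave 0 to 3, 0 to 4 and 0 to 3 calls in the 3 comparisons, and the blocked calls of Sqstm1 at 48 h, Gusb and Hexa were each kept in 5 of 11 cases (adjusted p up to 0.0751, 0.0807 and 0.104). Apart from the calls given for Ctsh, Psap and Sqstm1, the block by file-name number changed no member's call.

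Over single members, 1148 of 1188 values under other settings and 1078 of 1089 without an array kept their side of the threshold. Most of these were not called at all, and their sign could change. Psap at 96 h against 0 h, for example, went from 0.34 to -0.05 with median scaling. Calls over all genes, 4657, 2397 and 2789 in the 3 comparisons, were 2355, 2559 and 920 with median scaling, 2652, 910 and 1367 with no filter, 3982, 1484 and 1600 with the block by title number, and 3857, 435 and 2047 with only 2 groups. Without each array they ran from 2447 to 5431, 702 to 3293 and 988 to 2970. Signal over background limited few members, since 42 of 43 probes were above it on all arrays, and the 3 or 4 arrays per group set the width of the intervals.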
